A study of Mus musculus with 2 samples.

Results

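The Gnas imprinted cluster of distal mouse Chr 2 and its nearest neighbours were described across 2 Affymetrix arrays of newborn mouse head RNA. The set holds 7 genes: Gnas, its antisense transcript Nespas, and the flanking genes Vapb, Stx16, Npepl1, Ctsz and Tubb1. Every probe set to which the platform annotation gives 1 of these symbols was taken, without regard to its signal, which gave 15 probe sets among the 45037 on the array that are not controls, or 7 of 18193 named genes. Each probe set was kept apart, because different Gnas transcripts share exons and can differ in parental expression.

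Each array held RNA from the whole head of newborn offspring of carriers of T(2:9)11H, a reciprocal translocation between Chr 2 and Chr 9. The MatDp(dist2) head carried Chr 2 distal of the breakpoint in a duplicate from the mother with none from the father, and distal Chr 9 in a duplicate from the father. The PatDp(dist2) head carried distal Chr 2 from the father and distal Chr 9 from the mother. The heads are called MatDp and PatDp below. Both heads thus share the translocation background and the duplication of both chromosome parts, no head with a balanced parental contribution is among the samples, and the sources used here give neither the inbred background, the sex nor the number of animals behind each sample. With 1 array per genotype, no difference could be set against the spread between animals and no test was run.

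The Gnas locus is one of the more intricate imprinted loci known. Gs-alpha, the stimulatory G protein subunit that couples receptors to adenylyl cyclase and so to cAMP, is made from both parental copies in most tissues, and mainly from the maternal copy in a few. Alternative first exons upstream are spliced onto shared Gs-alpha exons: Nesp, which encodes a neuroendocrine secretory protein, is made from the maternal copy, while Gnasxl, which encodes an extra-large G protein subunit, and the noncoding exon 1A transcript are made from the paternal copy. Nespas is a noncoding antisense transcript of the paternal copy that runs across the Nesp exon. Newborns with both distal Chr 2 parts from one parent have long been known for opposite abnormalities of body shape, behaviour and survival.

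The separate starts of Gnas are shown here because a probe set of shared exons sums over them and a probe set of a first exon does not. RefSeq on GRCm38.p6 gave promoter windows for 6 of the 7 genes, and Nespas did not match. For Gnas it gave 4 windows, a pair of which overlap near the middle start. Printed 5′ to 3′ on the plus strand are the 250 bases before the outermost start, before the middle start (the upstream window of the pair) and before the most distal start. The table labels them only as Gnas. They are named here for the exons of Nesp, exon 1A and Gs-alpha from background knowledge of the locus, in which exon 1A lies shortly before the Gs-alpha exon and Gnasxl much nearer to Nesp, and were not checked against transcripts. The middle window starts 43429 bases after the outermost and 2257 bases before the most distal one. No window was assigned to Gnasxl. Capitals mark TTTATAG, a run of letters chosen after the windows had been read.
Gnas, chr2:174284070-174284319, before the Nesp exon: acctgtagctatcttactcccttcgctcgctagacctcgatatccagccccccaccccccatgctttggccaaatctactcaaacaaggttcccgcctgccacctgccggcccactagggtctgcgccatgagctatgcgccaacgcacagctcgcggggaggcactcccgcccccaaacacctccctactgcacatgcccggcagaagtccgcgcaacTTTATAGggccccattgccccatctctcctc
Gnas, chr2:174327499-174327748, before exon 1A: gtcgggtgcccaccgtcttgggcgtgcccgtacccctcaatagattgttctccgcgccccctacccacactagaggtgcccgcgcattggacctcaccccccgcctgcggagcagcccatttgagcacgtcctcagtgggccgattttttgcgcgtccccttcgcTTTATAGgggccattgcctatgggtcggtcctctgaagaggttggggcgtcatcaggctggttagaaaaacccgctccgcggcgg
Gnas, chr2:174329756-174330005, before the Gs-alpha exon: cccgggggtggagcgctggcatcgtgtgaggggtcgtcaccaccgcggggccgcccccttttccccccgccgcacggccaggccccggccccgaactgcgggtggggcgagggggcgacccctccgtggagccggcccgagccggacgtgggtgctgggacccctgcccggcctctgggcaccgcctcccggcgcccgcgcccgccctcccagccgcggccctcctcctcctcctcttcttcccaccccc
The window before the Gs-alpha exon had 80.0% G and C and 29 CG pairs, the one before exon 1A 63.2% and 21, and the one before the Nesp exon 61.6% and 14, against medians of 52.4% and 6 over 32851 windows of the same length. TTTATAG, searched on both strands, was present in the first 2 windows printed and not in the third, and 3.21% of all windows held it. A match is a description of letters and not a site, and none of the arrays' values measures these windows.

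The difference between the heads lay on 1 of the 5 Gnas probe sets, and the others gave signals within 1.08-fold of each other or too low to compare. The deposited signals, given by MAS5, Affymetrix's summary of probes that match a transcript against mismatched ones, were 498.3 in MatDp and 4.7 in PatDp on 1427789_s_at. Signals under 187, the mean of the medians of both arrays, were treated as too low for a ratio, and this floor took the place of the low signal. With the floor, 1427789_s_at was at least 2.66-fold higher in the head with the maternal duplication, a log2 ratio of at least 1.41. The bound moved with the floor, to a log2 ratio of 2.73 for a floor set at the 30th percentile and of 0.10, no longer a call, for one at the 70th. The platform table pairs it with no source sequence, so which transcripts it reads, among them Nesp, Gnasxl and Gs-alpha, was not determined here. The suffix _s in its name marks probes that match more than 1 transcript.

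Probe set 1450186_s_at, with the same suffix and also without a listed source sequence, had signals of 13786.5 in MatDp and 14947.9 in PatDp. The suffix does not say that both read the same transcripts, and those read by 1450186_s_at were not determined either. It was 1.08-fold higher with the paternal duplication as deposited, and its direction turned under 2 of the 5 scalings compared (as deposited, median centring, quantile normalization, a loess fit and an offset of 100), with log2 ratios from -0.15 to 0.09. It stayed under 2-fold under all 5. Probe set 1453413_at, designed from an expressed sequence tag, had signals of 201.6 and 217.5, just above the floor, so its ratio of 1.08-fold can show little.

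The other Gnas and Nespas probe sets lay under the floor in both heads, so they give no ratio and no evidence that a transcript was absent. Probe set 1421740_at, paired in the platform table with a RefSeq transcript of Gnas, had 119.7 in MatDp and 63.7 in PatDp. Probe set 1443375_at, from an expressed sequence tag, had 147.7 and 121.6. The Nespas probe set, 1427788_at, had 62.3 and 49.6. On all 3 the signal was higher in MatDp, but at this brightness the order of 2 MAS5 signals is not a measurement of direction.

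**Figure D1:**
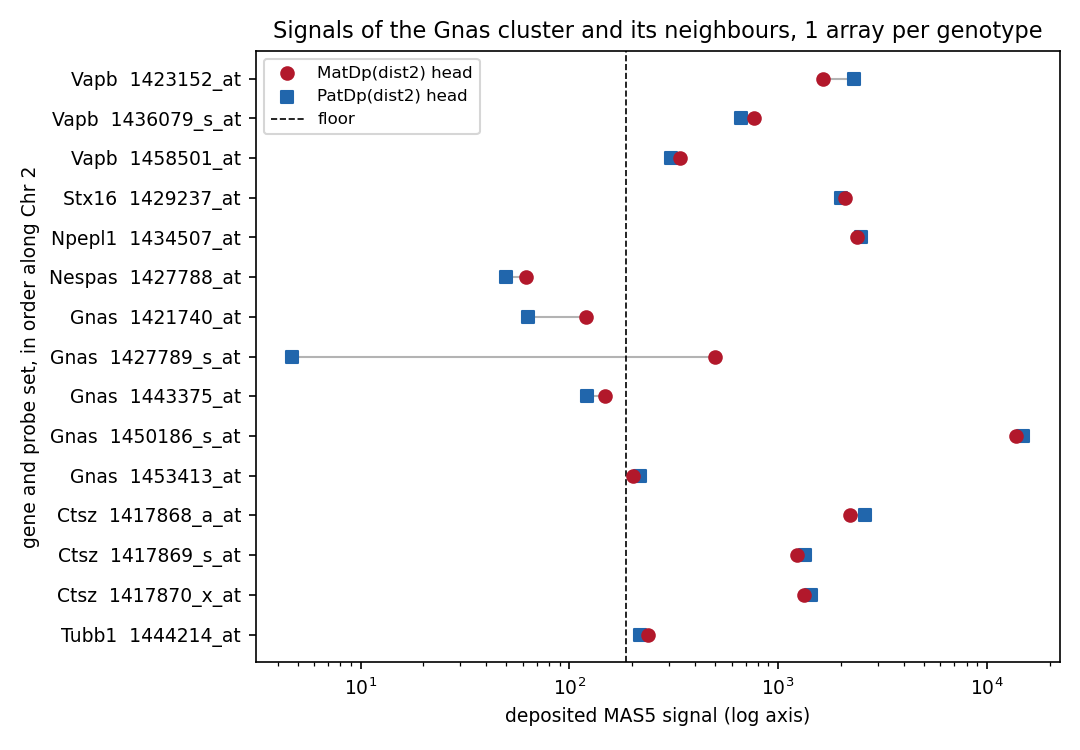
Deposited MAS5 signal (log axis) of each of the 15 probe sets in MatDp (circles) and PatDp (squares), with the floor of 187 as a dashed line. The pair of signals stands wide apart at Gnas 1427789_s_at, 498.3 against 4.7, and close together at the other probe sets above the floor.

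Of the 12 measured probe sets, those with a signal at or above the floor on at least 1 array, 1 was at least 2-fold apart, and it was higher in MatDp. That is 8.33% of them, close to the background of 6.96% over all 24229 measured probe sets, of which 4.15% were higher in MatDp and 2.81% in PatDp. A share so near the background is no result about the cluster. The 11 probe sets above the floor on both arrays had a median log2 ratio of -0.10, with a range from -0.48 to 0.21, against a median of 0.04 and an SD of 0.54 over 20784 probe sets.

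Gnas 1427789_s_at was also set beside probe sets of like brightness, a comparison added after its values were seen. Among the 6773 probe sets whose brighter signal lay between 352 and 705, which is 0.5 to either side on the log2 scale, 8.77% were at least 2-fold apart, 6.63% higher in MatDp and 2.14% in PatDp. The signal of 4.7 lies too far under the floor to rank against others.

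**Figure D2:**
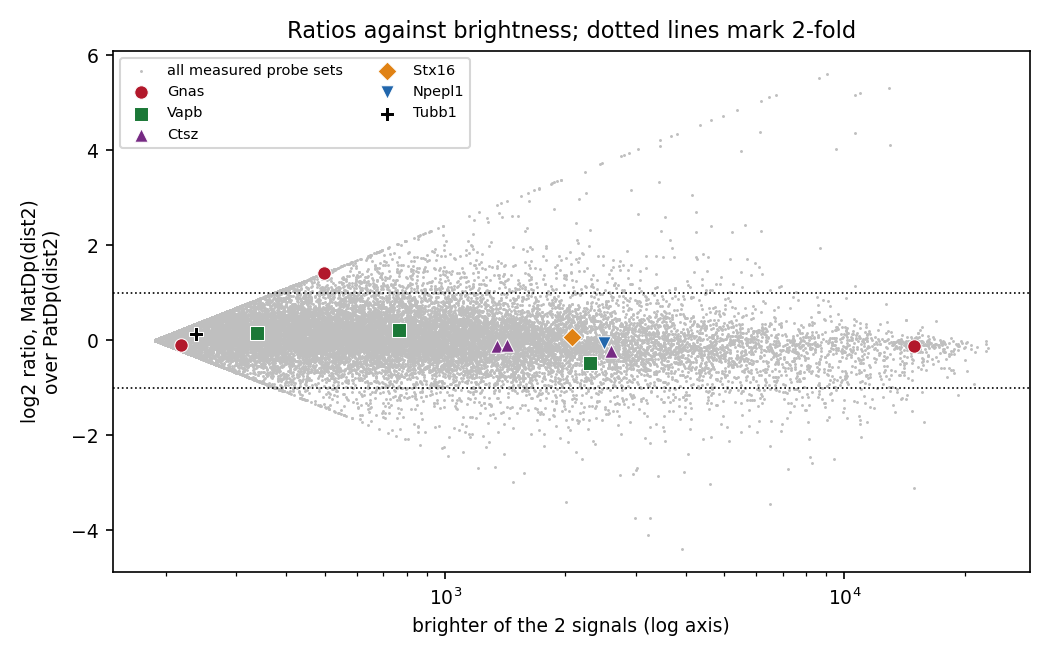
Log2 ratio of the MatDp over the PatDp signal against the brighter of both signals (log axis) for all measured probe sets (grey) and for the 12 measured probe sets of the cluster and its neighbours (coloured symbols), with dotted lines at 2-fold. The straight edge of the cloud at the upper left holds bounds, on which Gnas 1427789_s_at lies at 1.41, and the other coloured symbols lie between -0.48 and 0.21.

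The 5 flanking genes differed by at most 1.40-fold on all 9 of their probe sets, 4 of them higher in MatDp and 5 in PatDp. Vapb, which encodes a tail-anchored protein of the endoplasmic reticulum that binds lipid-transfer proteins at membrane contact sites, had probe sets that pointed in opposite directions. Probe set 1423152_at had 1650.3 in MatDp and 2306.4 in PatDp, 1.40-fold higher with the paternal duplication. Probe set 1436079_s_at had 766.8 and 663.1, and 1458501_at had 338.7 and 305.8, both higher with the maternal duplication as deposited. The sign of 1423152_at and of 1436079_s_at was the same under all 5 scalings, while that of 1458501_at turned under 1.

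The 3 Vapb ratios spanned 0.69 on the log2 scale, and their mean was -0.04 ± 0.38 (SD over probe sets of 1 gene on the same arrays, n = 3). Over the 973 genes with 3 probe sets above the floor on both arrays, the span had a median of 0.47 and a 75th percentile of 0.69, and 52.6% of these genes had ratios of both signs. The disagreement within Vapb thus matched the 75th percentile of genes with as many probe sets. Of 2698 probe sets of like brightness, 18.7% had a ratio as low as that of 1423152_at or lower.

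Ctsz, which encodes cathepsin Z, a lysosomal cysteine carboxypeptidase common in macrophages, gave probe sets that went together. Its signals in the MatDp and PatDp heads were 2218.7 and 2603.8 on 1417868_a_at. They were 1238.7 and 1349.5 on 1417869_s_at, and 1333.8 and 1430.8 on 1417870_x_at. All 3 were higher in PatDp under each of the 5 scalings, by a mean log2 ratio of -0.15 ± 0.07 (SD over probe sets, n = 3), and they spanned 0.13, under the 25th percentile of 0.28 for genes with 3 probe sets. The probe sets share a target gene and arrays, so their closeness says nothing of the spread between animals. Ratios of this size or lower were held by 36.3% to 41.3% of probe sets of like brightness.

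Stx16, Npepl1 and Tubb1 had 1 probe set each and lay near a ratio of 1. Stx16, the syntaxin of transport from endosomes to the trans-Golgi network, whose human counterpart holds deletions that disturb imprinting of GNAS, had signals of 2083.4 in MatDp and 2001.6 in PatDp. Npepl1, a predicted aminopeptidase gene that lies between Stx16 and the cluster, had 2387.0 and 2493.6. Its direction turned under 2 of the 5 scalings. Tubb1, the beta tubulin of platelets and megakaryocytes, had 238.0 and 218.2, and a probe set whose brighter signal is so close to the floor cannot reach 2-fold. Its sign turned under 1 scaling.

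The order of genes along Chr 2 was followed outward from Gnas over the 10 nearest genes with a probe set on each side, taken from RefSeq. Besides the 6 genes already described, these were 14 others with 30 probe sets, of which 17 were measured, with a median log2 ratio of -0.08. Over all 24229 measured probe sets, 6.96% were at least 2-fold apart. Of the 17 here, 1 was, a share near that background. It was the probe set of Phactr3, which encodes an actin and protein phosphatase regulator of neurons and is the ninth gene distal of Gnas. It had signals of 554.3 in MatDp and 239.3 in PatDp, 2.32-fold. Between Gnas and Phactr3 no measured probe set reached 2-fold, and those of Tubb1 and Edn3 lay too near the floor to do so.

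Nelfcd, which encodes a subunit of the negative elongation factor and lies next to Gnas, had 1061.2 and 903.6. Atp5e, a small subunit of the mitochondrial ATP synthase, had 3063.7 in MatDp and 4053.6 in PatDp. Prelid3b, a gene for a mitochondrial lipid-transfer protein, had 1408.2 and 1868.4. The 3 probe sets of Pmepa1, a TGF-beta-induced membrane protein gene, and the 3 measured ones of Rab22a, a GTPase of endosomes, lay on both sides of a ratio of 1, from -0.33 to 0.19 and from -0.23 to 0.18 on the log2 scale. The zinc finger gene Zfp931 had 630.9 and 744.4. Edn3, which encodes the peptide endothelin 3, and the pseudogene Ppp4r1l-ps had no measured probe set past 1.22-fold. Zbp1, 1700021F07Rik, 1700010B08Rik, Zfp972 and Sycp2 lay under the floor in both heads.

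**Figure D3:**
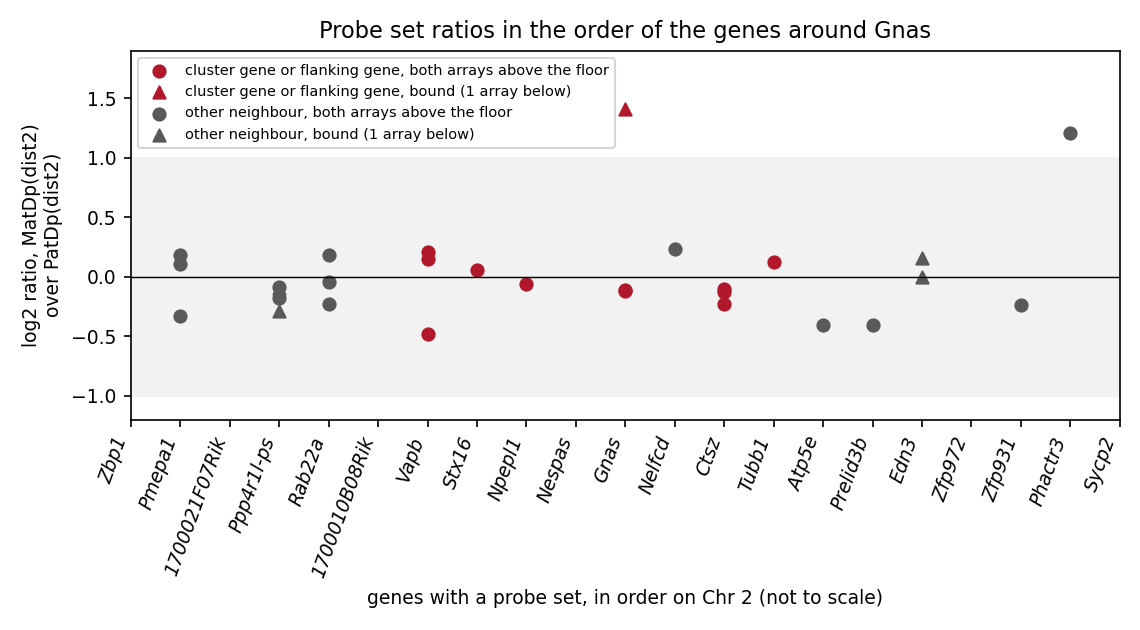
Log2 ratio of the MatDp over the PatDp signal for each measured probe set, with genes in their order on Chr 2 and not to scale, circles for ratios of 2 measured signals and triangles for bounds. The grey band marks less than 2-fold, and Gnas 1427789_s_at (1.41) and Phactr3 (1.21) are the points outside it.

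Genes that work with Gs-alpha were counted on 1 probe set per gene, over lists chosen with earlier results of these arrays known. Over all 12483 measured genes, 7.9% were at least 2-fold apart, 4.43% higher in MatDp and 3.47% in PatDp, with a median log2 ratio of 0.02. Of 11 measured other G protein alpha subunits, 3 were at least 2-fold higher in MatDp and 0 in PatDp, with a median log2 ratio of 0.11. These were Gnal, the olfactory and striatal relative of Gs-alpha that also activates adenylyl cyclase, with signals of 1478.8 and 497.9, Gnao1, the main G protein subunit of neurons, with 1985.1 and 881.7, and Gnaz, with 946.4 and 446.2. Further measured probe sets of Gnal were under 2-fold, with log2 ratios of 0.77 and 0.18, while a further one of Gnaz had 1.11. The count of alpha subunits higher in MatDp was 2 with the offset of 100 and 2 when the probe sets of a gene were averaged. At 3-fold it was 0. The widely made inhibitory subunits lay closer together, Gnai2 with 8497.2 and 8753.6 and Gnai3 with 3352.4 and 3141.7.

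Of 13 beta and gamma subunits and Ric8 chaperones, 1 was at least 2-fold higher in each direction, with a median of 0.18. Gng2, a gamma subunit abundant in brain, had 3743.2 in MatDp and 1115.8 in PatDp, and Gng11, a gamma subunit of vessels among other tissues, had 1816.7 and 4044.2. Gng3, a gamma subunit of neurons, had 2435.2 and 1234.8, just under 2-fold. The count higher in MatDp was 2 by quantile normalization, by loess, at the 30th percentile floor and with no floor. With the lower floor or none, the gene added was Gng7 (326.2 and, under the main floor, 152.7) and not Gng3. Ric8b, the chaperone and exchange factor for Gs-alpha and Gnal, had 636.0 and 1143.0.

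Of 8 measured receptors that signal through Gs, 0 were past 2-fold, with a median of 0.12 that fell to -0.03 under 1 of the 5 scalings. The calcitonin receptor-like receptor Calcrl had 699.3 and 1193.3, the PACAP receptor Adcyap1r1 697.6 and 514.5, and Ptger4, a prostaglandin receptor, 351.7 and 447.4. The other 11 receptors on the arrays lay under the floor in both heads.

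Of 18 measured adenylyl cyclases, protein kinase A subunits, cAMP exchange factors and CREB factors, 0 were past 2-fold. The median was -0.06, with 9 genes higher in each head. The cyclase genes Adcy5 (779.4 and 423.4) and Adcy9 (1164.0 and 2136.8) and Adcy1 (3184.6 and 1871.1) differed the most, in both directions.

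The families of the flanking genes were counted in the same way. Of 12 measured cathepsins, 0 were past 2-fold, 11 had a higher signal in PatDp, and the median log2 ratio was -0.32. Over all genes, 5997 of 12483 had a higher signal in PatDp. Ctsz at -0.23 lay nearer to 0 than that median. Ctsb, the most studied lysosomal cysteine cathepsin, had 6092.6 in MatDp and 8630.1 in PatDp. Ctsa, the protective protein of lysosomal glycosidases, had 1476.4 and 1983.5, and Ctse, an aspartic protease, had 437.4 and 321.8.

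Of 8 beta tubulins, 2 were at least 2-fold higher in MatDp, against 4.43% of all genes. These were the neuronal forms Tubb3 (2853.4 and 774.8) and Tubb4a (2062.8 and 674.8). The median was 0.43, against 0.13 for Tubb1. In signal 7 were higher in MatDp and 1 in PatDp, Tubb6 with 2727.1 and 3329.8. Genes of VAP contact sites had a median of -0.32. Of 15, 0 were past 2-fold and 11 had a higher signal in PatDp, against 5997 of 12483 over all genes. Among these, Vapa, the paralog of Vapb, had 6515.6 and 7418.1, the lipid-transfer gene Stard3 889.7 and 1259.9, and Osbpl3, an oxysterol-binding relative, 480.5 and 647.8, and Vps13c had 315.8 and, under the floor, 165.2. Of 20 SNARE genes of Golgi and endosomes, 0 were past 2-fold and the median was 0.00. Vamp8 had 826.8 and 1637.9, Vamp3 2424.6 and 4263.3, and Stx18 640.1 and 968.8, against a ratio near 1 for Stx16. Of 9 aminopeptidases, 0 were past 2-fold, with a median of -0.16, and Enpep had 286.4 and 429.6, Erap1 163.5, under the floor, and 265.8, and Rnpep 843.9 and 1034.5.

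**Figure D4:**
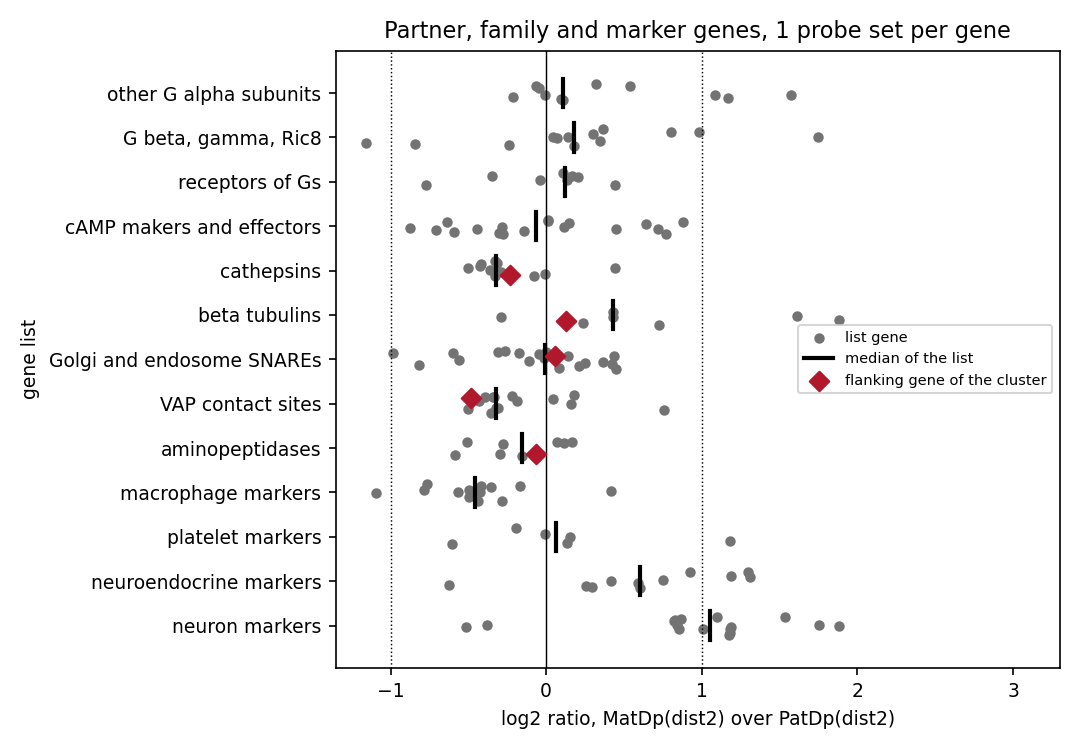
Log2 ratio of the MatDp over the PatDp signal of each measured gene of 13 lists, 1 probe set per gene and bounds included, with medians as bars, flanking genes of the cluster as diamonds and dotted lines at 2-fold. Diamonds lie within 2-fold, and the neuron and neuroendocrine medians (1.06 and 0.60) stand to the right of the others.

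Marker genes of several cell types differed in signal between the arrays. In bulk RNA, fewer cells of a type and less RNA per cell cannot be told apart. Neuron markers were all measured, and 9 of 16 were at least 2-fold higher in MatDp and 0 in PatDp. Over all measured genes, 4.43% were at least 2-fold higher in MatDp and 3.47% in PatDp. In signal 14 neuron markers were higher in MatDp, while Nefl (3037 and 4338.8) and Nefm (1735 and 2258.9) were higher in PatDp. The summed signal of the list was 58499.4 against 32002.4. Neuroendocrine markers, genes of cells in which Nesp is known to be made, were at least 2-fold higher in MatDp for 3 of 11 and under 2-fold for 8. In signal 10 of 11 were higher in MatDp, against 6485 of 12483 over all genes. Their median was 0.60 and their summed signal 22892.2 against 16145.6. The granule genes Scg3 (1756.9 and 714.5) and Pcsk1n (1525.1 and 668.2) and Syt4 (1987.9 and 802.7) were the 3 past 2-fold. Chga had 547.9 and 364.2, and Resp18 went the other way, with 293.1 and 451.4. Of 3 measured pituitary genes, growth hormone (Gh) had 2145.8 and 518.9, Pomc had 367.9 and 683.2, and Ghrhr had 201.6 and, under the floor, 76.4, with Prl among the 6 under the floor. The part of these markers in the ratio of Gnas 1427789_s_at was not tested.

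Of 14 measured macrophage markers, 1 was at least 2-fold apart, a share near the 7.9% over all genes. In signal 13 of the 14 were higher in PatDp, against 5997 of 12483 over all genes, with a summed signal of 11419.9 in MatDp and 16956.4 in PatDp. The growth factor receptor Csf1r had 3151.8 and 5420.2, and the scavenger receptor Cd163 272.9 and 582.7, while Fcer1g, an immunoglobulin receptor subunit, had 377.2 and 282.3. The call on Cd163 was lost with the offset of 100, at the 70th percentile floor and at 3-fold. Of 14 platelet markers 6 were measured, among them Pf4 (2709.9 and 4113.8) and Itga2b (322.0 and 293.4), while Ppbp and Gp9 lay under the floor. Gp1bb (423.3 and, under the floor, 184.5) was at least 2.26-fold higher in MatDp. The call on Gp1bb was lost with the offset of 100, at the 70th percentile floor, at 3-fold and when the probe sets of a gene were averaged. The part of these markers in the ratios of Ctsz and Tubb1 was not tested. Skin and lens markers were higher in MatDp, 9 of 12 and 10 of 13 at least 2-fold, and all 13 lens genes lay under the floor in PatDp. Muscle and fat markers were higher in PatDp, 5 of 16 and 8 of 9 at least 2-fold. Over all measured genes, the shares at least 2-fold higher were 4.43% in MatDp and 3.47% in PatDp. The Y-linked genes Eif2s3y (1168.9 and 1364.8), Kdm5d (472.4 and 488.8) and Uty (485.5 and 618.7) were above the floor in both heads. Xist (217.3 and 202.0) lay only just above it, where a signal can show little.

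The other imprinted genes of distal Chr 2 give a scale for the same pair of heads. On their brightest probe sets, H13 and Blcap were at least 2-fold higher in MatDp, with signals of 1171.7 and 247.2 and of 2397.1 and 992.8. Nnat and Mcts2 were higher in PatDp, with 43.1 and 3927.0 and with 90.4 and 720.4. A further H13 probe set was also at least 2-fold higher in MatDp, with 688 in MatDp and, under the floor, 178.9 in PatDp. Another H13 probe set was past 2-fold in the opposite direction, with 96.1 in MatDp, under the floor, and 400.7 in PatDp. H13 thus has no single direction here. Of the Gnas probe sets, 1421740_at and 1443375_at lay under the floor in both heads, and 1453413_at too near it to reach 2-fold. Probe set 1427789_s_at was at least 2.66-fold higher in MatDp, the direction of Blcap, a call lost with the floor at the 70th percentile. Probe set 1450186_s_at was under 2-fold. Neither was at least 2-fold higher in PatDp, the direction of Nnat and Mcts2.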

How the data were processed

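Both arrays were used, 1 per genotype. The deposited values are MAS5 signals, linear intensity values of 45101 probe sets per array. The tools MAS5 and GCOS are given per the submitters' processing notes, without versions. The mean without the lowest and highest 2% was 500.00 on each array, so the values were scaled before deposit. After 64 controls were left out, 34945 probe sets had 1 symbol in the platform annotation, 932 had several and 9160 had none, and those 2 classes were left unnamed. Symbols were updated by gene ID through RefSeq for GRCm38.p6, where 34741 matched. That table also gave gene order.

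A ratio is the MatDp over the PatDp signal. The floor was 187, the mean of both arrays' 50th percentiles. Below it on 1 array the ratio is a bound (the brighter signal over the floor), and below it on both there is none. A call is a difference of at least 2-fold. Lists used 1 probe set per gene, chosen by its mean log2 signal as the brightest. All member probe sets, the 10 genes on each side of Gnas and, of each list, the genes past 2-fold or otherwise the 3 with the largest differences were to be named, and some further list genes were named after their values were seen. For marker lists, examples stand for the rest. The members and lists were chosen with earlier results of these data known. Alternatives covered scaling (median centring, quantile normalization, loess), an offset of 100, the floor, the fold and the probe set rule. The 5 scalings compared are the deposited one, these 3 and the offset. The calling and scaling steps were tested on simulated data. Python 3.11.15, NumPy 2.4.6, pandas 2.3.3, SciPy 1.17.1 and statsmodels 0.14.6 were used. The number of arrays limits the precision.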

Additional observations from a re-analysis of the deposited data

How the results depend on the processing

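Each genotype had 1 array, so no array could be left out. No paired analysis was possible because there is 1 array per genotype. The call on Gnas 1427789_s_at rests on the floor: its log2 ratio was 6.73 with no floor and 2.73 with the floor at the 30th percentile. At the 70th percentile, where its brighter signal barely clears the floor, it was 0.10. At the 3-fold threshold its bound of 1.41 is not a call, and under both of these settings 0 member probe sets were called. It remained past 2-fold under each scaling, with 1.40 by median centring, 1.35 by quantile normalization, 1.38 by loess and 1.06 with the offset of 100. For the other 11 measured probe sets, all 96 alternative values kept their side of the threshold. The count of all probe sets at least 2-fold higher in MatDp was 1853 with the floor at the 30th percentile, 409 at the 70th, where 468 were higher in PatDp and the share of calls higher in MatDp was 46.6% against 59.6%, 5133 with no floor, 578 with the offset of 100, 3025 at 1.5-fold and 238 at 3-fold. For PatDp it was 2952 with no floor, 2164 at 1.5-fold and 147 at 3-fold. The median of the imprinted genes of distal Chr 2 was 1.27, against -0.12, when the ratios of a gene's probe sets were averaged, which leaves out genes without a probe set above the floor on both arrays. Of the alternative values of the lists, 550 were rated the same, as medians that kept their side of the threshold or counts within 1.5 times. Medians under the threshold could change sign and still be rated the same, as that of the Gs receptors did. A further 46 counts moved by over 1.5 times, or to or from 0. No detection calls were used, and ratios of probe sets near the floor cannot reach 2-fold.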
